A study of Mus musculus with 2 samples.

Results

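The genes described here encode the route by which pyruvate enters the mitochondrion and is burned in the citric acid cycle, together with the enzymes of the malate-aspartate shuttle, the NADP-linked isocitrate dehydrogenases and the malic enzymes. They were taken as a list of 31 symbols, and all 31 matched a gene among the 55536 annotated genes of the deposited gene tables. RNA came from the gastrocnemius, the large muscle of the calf, of male mice 10 days old of the hybrid strain B6CASTF1/J. The labels describe 1 group of 2 biological replicates with no treatment and no second genotype. Each library was made from 300 ng of total RNA with ERCC spike-in RNAs added. Per the labels the libraries come from separately numbered animals that share a donor code, so the spread between them may not be that of unrelated mice.

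Pyruvate made by glycolysis crosses the inner mitochondrial membrane through a carrier and is turned into acetyl-CoA by the pyruvate dehydrogenase complex, a large assembly that is switched off when kinases phosphorylate it and switched on when a phosphatase removes the phosphate. The citric acid cycle then oxidises the acetyl group and passes the electrons to the respiratory chain. Muscle makes most of its cytosolic NADH in glycolysis, and the malate-aspartate and glycerol phosphate shuttles carry those electrons into the mitochondrion.

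The libraries held 38874862 and 38160786 expected counts, of which the 31 genes took 218995 in replicate 1 and 240476 in replicate 2. Levels are given as TPM, the deposited relative abundance scaled by transcript length and by the library's total, which allows genes to be set against each other. A gene of 1000 bases with only 3 counts would stand at 0.0925 TPM in the first library and 0.0924 TPM in the other, and every one of the 31 genes lay far above that level. With 1 group there was no comparison of conditions and no gene was tested, since the smallest two-sided p of an exact sign-flip test is 0.5 here. Skeletal muscle fibre markers were abundant in both libraries, with summed levels of 78075 and 79558 TPM for 6 genes. Of 6 heart markers, summing to 57 and 68.6 TPM, Nppa, Nppb and Myl7 were at 0 in both libraries, while Myh6 stood at 38.5 and 49.5 TPM, Tnnt2 at 17.5 and 18.5 TPM and Tnni3 at 1 and 0.61 TPM.

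All 31 genes reached 1 TPM in both libraries, and 17 of them reached 100 TPM in both. A further 8 stayed under 30 TPM in both, and 6 lay between. The median gene stood at 109.8 TPM in replicate 1 and 119.9 TPM in replicate 2. The median of the 11309 protein-coding genes at 1 TPM or more in both was 8.66 TPM and 8.30 TPM. Summed, the genes made up 3535 TPM in replicate 1 and 3858 TPM in replicate 2, or 0.808% and 0.874% of all protein-coding TPM. Because TPM depends on which transcripts the reads are given to, some levels are also stated with 1 length per gene. That length is the one of the gene's longest complete coding transcript. Levels stated without it can change as well. With it Mdh1 went from 194 and 228 TPM to 130.5 and 160.3 TPM. Pdhx went from 33.6 and 38 TPM to 24.1 and 26.1 TPM. Of the 31 genes the highest was Mdh2, mitochondrial malate dehydrogenase, and the lowest was Pdk3, a pyruvate dehydrogenase kinase.

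**Figure D1:**
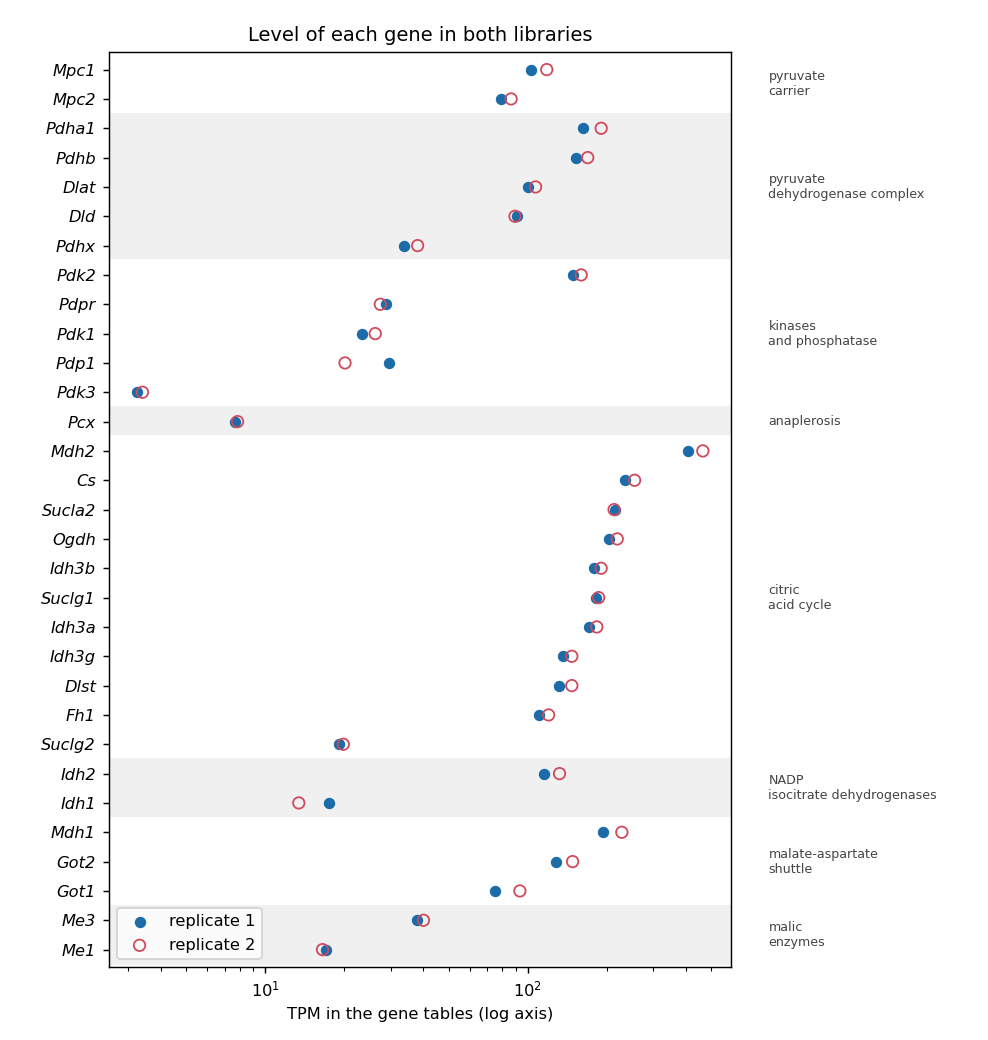
TPM of each of the 31 genes in replicate 1 and replicate 2 on a logarithmic axis, grouped by role. The levels ran from 3.24 TPM for Pdk3 to 464 TPM for Mdh2, and the points of the 2 libraries lay close together for most genes, with Pdp1 and Idh1 lower in replicate 2.

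The mitochondrial pyruvate carrier is built from the products of Mpc1 (chr17:8282904-8297661, plus strand, mm10) and Mpc2 (chr1:165460637-165481214, plus strand). Mpc1 stood at 103 TPM in replicate 1 and at 118 TPM in replicate 2, and Mpc2 at 79.3 TPM and 86.3 TPM. Mpc1 was therefore the higher of the partners in both libraries, with a log2 ratio of Mpc2 over Mpc1 of -0.41 ± 0.05 (SD, n = 2). Both are uncertain in level, because a second deposited table, made from the same libraries by another method, placed each higher by more than 0.5 on the log2 scale in at least 1 library. After rescaling to the same total it gave Mpc1 152 and 135 TPM and Mpc2 119 and 117 TPM. Part of the Mpc2 level came from Mpc2-203, a transcript with no annotated reading frame that starts inside the gene, at 37.5% and 26.4% of the gene's TPM. The coding transcript Mpc2-201 held 61.6% and 72.9%. In the second table Mpc2-203 held 51.5% and 36.2%, and Mpc2-201 held 47.9% and 63%. The transcript without a reading frame was thus ahead there in replicate 1.

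Pyruvate dehydrogenase itself, the decarboxylating enzyme of the complex, consists of an alpha and a beta subunit encoded by Pdha1 (chrX:160122209-160138413, minus strand) and Pdhb (chr14:8165996-8173025, minus strand). Pdha1 was measured at 162 TPM in replicate 1 and at 190.2 TPM in replicate 2, and Pdhb at 153 TPM and 169 TPM. Pdha1 took 51.5% and 53.0% of their sum. The order was not robust to the method, since the log2 ratio of Pdha1 over Pdhb was 0.13 ± 0.06 (SD, n = 2) in the gene tables and -0.22 in the second table. The testis form of the alpha subunit, Pdha2, was at 0 in both libraries.

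The core of the complex is the acetyltransferase encoded by Dlat, and Dld encodes the dihydrolipoamide dehydrogenase that reoxidises the lipoyl group for this complex and for the 2-oxoglutarate dehydrogenase complex. Dlat (chr9:50634633-50659780, minus strand) was found at 99.9 TPM and 107 TPM, and Dld (chr12:31331277-31351453, minus strand) at 91.1 TPM and 89.3 TPM. Pdhx (chr2:103021075-103073513, minus strand), which encodes the protein that binds this dehydrogenase to the core, was lower, at 33.6 TPM in replicate 1 and 38.0 TPM in replicate 2. Pdhx over Dlat gave a log2 ratio of -1.53 ± 0.06 (SD, n = 2), which is 2.88-fold lower, and the second table gave -2.39. Dlat is uncertain, since that table placed it at 145 and 165 TPM, and the log2 ratio of Dlat over Pdha1 went from -0.77 ± 0.10 (SD, n = 2) in the gene tables to 0.12 there. A short transcript with no annotated reading frame, Dlat-202, held 44.7% and 39.1% of the Dlat level in the gene tables but 24.1% and 13% in the second table. It is 770 bases long against 4035 for the coding Dlat-201, which gives each of its counts more weight in TPM. Dlat-201 held 52.9% and 58.6% in the gene tables and only 30.1% and 31% in the second table. There the retained-intron Dlat-206 held 29.4% and 34.2%. All non-coding classes together took 47.1% and 41.4% of Dlat in the gene tables and 69.9% and 69% in the second table. With 1 length per gene Dlat stood at 60.7 and 69.9 TPM, and its log2 ratio over Pdha1 was -1.40.

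Among the kinases that inactivate the complex, Pdk2 (chr11:95026258-95041354, minus strand) was the highest of the listed genes, at 148 TPM in replicate 1 and 159.6 TPM in replicate 2. Pdk1 (chr2:71873224-71903858, plus strand) followed at 23.3 TPM and 26.2 TPM, and Pdk3 (chrX:93764607-93832201, minus strand) was the lowest of all 31 genes at 3.24 TPM and 3.40 TPM. These gaps were far wider than the spread between the libraries, with a log2 ratio of 2.63 ± 0.04 for Pdk2 over Pdk1 and of 5.49 ± 0.03 for Pdk2 over Pdk3 (SD, n = 2), the latter 45-fold. Pdk4, the remaining kinase of the family and a gene known to be induced by fasting and by glucocorticoids, was not on the list but changes the picture of the family. It stood at 159 TPM in replicate 1 and 305 TPM in replicate 2. Of the summed kinase level of 333 TPM in replicate 1, Pdk4 took 47.7% and Pdk2 44.3%, while of 494 TPM in replicate 2 they took 61.7% and 32.3%. The log2 ratio of Pdk4 over Pdk2 was 0.11 in replicate 1 and 0.93 in replicate 2. The order in replicate 1 depended on the method, as Pdk2 took 48.4% and Pdk4 44% of the family in the second table, and 49.6% and 43.6% with 1 length per gene. Pdk4 led in replicate 2 by each of them, but by less in the second table, at 223 TPM against 181 TPM, and the mean log2 ratio there was 0.08 in place of 0.52 ± 0.58 (SD, n = 2). The shares of Pdk1, 6.99% and 5.31%, and of Pdk3, 0.972% and 0.688%, stayed small in both. Pdk1 fell to 16.6 and 16.8 TPM with 1 length per gene.

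Pdp1 (chr4:11958184-11966452, minus strand) encodes the calcium-responsive catalytic subunit of the phosphatase that reactivates the complex, and Pdpr its regulatory subunit. Pdp1 was present at 29.6 TPM in replicate 1 and 20.1 TPM in replicate 2. Its relative Pdp2 stood at 1.60 and 1.54 TPM, so Pdp1 made up 94.9% and 92.9% of the summed phosphatase level. Pdpr (chr8:111094630-111137074, plus strand) was at 28.8 TPM and 27.4 TPM. Which of Pdp1 and Pdpr was higher differed between the mice, with a log2 ratio of 0.04 in replicate 1 and of -0.44 in replicate 2. With 1 length per gene Pdpr was the higher in both, at 24.1 and 23.6 TPM against 17.6 and 12.5 TPM for Pdp1, a mean log2 ratio of -0.68. Pdp1 was then 8.96-fold above Pdp2 in place of 14.6-fold. All Pdp1 transcripts with a level were annotated as coding, but their shares depended on the table. Pdp1-205 held 8.47% and 3.87% of the gene in the gene tables and 83.1% and 87.3% in the second table.

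Pcx (chr19:4510472-4621752, plus strand) encodes pyruvate carboxylase, which turns pyruvate into oxaloacetate to refill the cycle and is best known from liver and fat. It was the next lowest of the 31 genes, at 7.69 TPM in replicate 1 and 7.83 TPM in replicate 2. Lrfn4 lies on the opposite strand within the same interval and held 202 and 205 counts against 684 and 642 for Pcx, and the sources used here do not say whether reads were counted by strand. With 1 length per gene Pcx stood at 5.21 and 4.89 TPM. Its coding transcripts could not be apportioned. Pcx-201 held 37.7% of the gene in replicate 1 and 2.42% in replicate 2. The second table gave the largest share to Pcx-205, an incomplete transcript of 595 bases, with 48.5% and 56.7%. The gene tables listed Pcx-205 at 0.

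Cs (chr10:128337734-128362479, plus strand) encodes citrate synthase, the entry step of the cycle and a common marker of mitochondrial content. It was measured at 234 TPM in replicate 1 and 255 TPM in replicate 2, with 99.8% and 99.9% of it in the transcript Cs-201.

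The NAD-dependent isocitrate dehydrogenase, a regulated step of the cycle, is assembled from alpha, beta and gamma subunits encoded by Idh3a (chr9:54586334-54604661, plus strand), Idh3b (chr2:130279309-130284547, minus strand) and Idh3g (chrX:73778963-73786897, minus strand). Idh3a was at 170.4 TPM in replicate 1 and 183 TPM in replicate 2, Idh3b at 178 TPM and 190.1 TPM, and Idh3g at 136 TPM and 147 TPM. The 3 subunit genes kept almost the same proportions in the 2 mice. The log2 ratio of Idh3a over Idh3b was -0.06 ± 0.01, that of Idh3a over Idh3g 0.32 ± 0.01 and that of Idh3b over Idh3g 0.38 ± 0.01 (SD, n = 2). The place of Idh3a depended on the method. With 1 length per gene it stood at 142 and 153 TPM, with a log2 ratio of -0.31 over Idh3b and of 0.07 over Idh3g. Idh3b over Idh3g stayed at 0.38. Nop56, on the opposite strand to Idh3b and partly overlapping it, stood at 19.9 and 18.7 TPM.

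The Idh3a level was divided almost evenly between a coding and a non-coding class of transcript. Idh3a-205, coding, held 48.0% in replicate 1 and 48.7% in replicate 2. Idh3a-204, annotated as a target of nonsense-mediated decay, the pathway that destroys RNAs with an early stop codon, held 46.5% and 48.1%. In the second table the decay transcript was ahead, at 62.4% and 57.7%. Idh3a-204 differs from Idh3a-205 by an extra exon of 95 bases (chr9:54592161-54592255), a later start within the first exon and a last exon of 664 bases in place of 1380. The start of the extra exon is printed because it carries the early stop, whose 3 bases, in the reading frame of the coding transcript, are in capitals (chr9:54592161-54592190, plus strand, mm10, 5′ to 3′).
Idh3a extra exon: ggcatcgtttgcattactattTAAatttcc
The tables give reads to Idh3a-204 as a whole, so they do not separate reads over this exon from those over its other parts.

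The 2-oxoglutarate dehydrogenase complex is built like the pyruvate dehydrogenase complex, with Ogdh encoding its decarboxylase and Dlst its succinyltransferase. Ogdh (chr11:6291633-6356642, plus strand) stood at 204 TPM in replicate 1 and at 219 TPM in replicate 2, and Dlst (chr12:85110833-85134845, plus strand) at 131 TPM and 147 TPM. Ogdh exceeded Dlst in both mice, with a log2 ratio of Dlst over Ogdh of -0.61 ± 0.05 (SD, n = 2), or 1.52-fold lower. Dlst is uncertain in level, since the second table gave it 200.3 and 224 TPM and placed over 68% of that in transcripts of a non-coding class, against 19.8% and 21.1% in the gene tables. Ogdhl, the related gene of brain and liver, was at 0.72 and 0.75 TPM.

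Succinate-CoA ligase makes ATP or GTP directly from the cycle, and which nucleotide it makes depends on the beta subunit: Sucla2 encodes the ATP form, Suclg2 the GTP form, and Suclg1 the alpha subunit that both share. Sucla2 (chr14:73525319-73596142, plus strand) was at 214 TPM in replicate 1 and 213 TPM in replicate 2. Suclg2 (chr6:95473009-95718800, minus strand) was at 19.0 TPM and 19.8 TPM. Sucla2 thus made up 91.8% and 91.5% of the beta subunit level, and its log2 ratio over Suclg2 was 3.46 ± 0.04 (SD, n = 2), which is 11-fold. The second table gave 10.7-fold. Suclg1 (chr6:73248382-73276911, plus strand) stood at 182 TPM and 186 TPM, slightly below Sucla2 in both libraries of the gene tables. In the second table Suclg1 was the higher in replicate 2, at 199 TPM against 192 TPM, and the mean log2 ratio was -0.01 in place of -0.21 ± 0.03 (SD, n = 2), so the order is not settled. Sucla2 was spread over a pair of coding transcripts, Sucla2-203 with 53.4% and 59.4% and Sucla2-201 with 42.4% and 37.1%. Sucla2-203 has 11 exons, with a first exon of 233 bases and a last exon of 769. Sucla2-201 has 12 exons, with a first exon of 132 bases and a last exon of 86.

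Fh1 (chr1:175600374-175625635, minus strand) encodes fumarase, and was at 109.8 TPM in replicate 1 and 119.9 TPM in replicate 2. It is uncertain, as the second table put it at 181 and 194 TPM and 1 length per gene at 70.4 and 75.8 TPM. The tables also divided it differently among its transcripts. Fh1-204, of 599 bases and in the decay class, held 12.4% and 10.1% in the gene tables against 37.9% and 35.4% in the second, while the full coding Fh1-201 held 56.1% and 55.1% against 24.3% and 24.4%. The short Fh1-205 held 28.5% and 31.6% against 35.6% and 11.1%, and the retained-intron Fh1-202 held 2.73% and 2.87% against 1.95% and 28.8%.

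Mdh2 (chr5:135778480-135790398, plus strand) encodes the mitochondrial malate dehydrogenase that closes the cycle and also serves the malate-aspartate shuttle. It was the highest of the 31 genes, at 409 TPM in replicate 1 and at 464 TPM in replicate 2, and ranked 96 by mean TPM among protein-coding genes. A transcript of the decay class, Mdh2-203, took 35.6% and 34.8% of the Mdh2 level in the gene tables but 8.02% and 3.78% in the second table. It leaves out exon 2, a stretch of 169 bases (chr5:135783305-135783473) whose length is not a multiple of 3. The junctions are printed to show the reads that tell the transcripts apart, the last 15 bases of exon 1 followed by 15 bases of the next exon, with the exon that follows the skip in capitals (plus strand, mm10, 5′ to 3′).
Mdh2 junction with exon 2: agcacttcggcccagaacaatgctaaagtg
Mdh2 junction without exon 2: agcacttcggcccagGCTACCTTGGACCGG
The gene level of Mdh2 was nearly the same in both tables, with 403 and 453 TPM in the second, so the tables differed in how they divided the gene and not in its total.

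NADPH-producing isocitrate dehydrogenases come in a cytosolic form, encoded by Idh1, and a mitochondrial form, encoded by Idh2. Idh2 (chr7:80094846-80115392, minus strand) stood at 115 TPM in replicate 1 and 132 TPM in replicate 2. Idh1 (chr1:65158616-65186500, minus strand) stood at 17.4 TPM and 13.4 TPM. The mitochondrial form made up 86.9% and 90.8% of their sum, and its log2 ratio over Idh1 was 3.01 ± 0.40 (SD, n = 2), or 8.03-fold. The wide spread of that ratio came from both genes, Idh2 being the higher and Idh1 the lower in replicate 2.

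The malate-aspartate shuttle uses a cytosolic and a mitochondrial form of malate dehydrogenase and of aspartate aminotransferase. Mdh1 (chr11:21556787-21572367, minus strand), the cytosolic dehydrogenase, was at 194 TPM in replicate 1 and 228 TPM in replicate 2. Mdh2 exceeded it with a log2 ratio of 1.05 ± 0.04 (SD, n = 2), or 2.07-fold, and by 3.07-fold in the second table. Mdh1 is uncertain, as the second table placed it at 124 and 157 TPM. Mdh1-202, an incomplete transcript of 549 bases, held 40.2% and 37.1% in the gene tables and 5.67% and 7.94% in the second.

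Got1 (chr19:43499752-43524605, minus strand) encodes the cytosolic aminotransferase and was at 75.1 TPM in replicate 1 and 93.2 TPM in replicate 2. Got2 (chr8:95864134-95888547, minus strand) encodes the mitochondrial one and was at 128 TPM and 148 TPM. Got2 over Got1 gave a log2 ratio of 0.72 ± 0.07 (SD, n = 2), close to the 0.74 of the second table. For both enzymes of the shuttle the mitochondrial form was therefore the higher in each library, as it was for the NADP-linked isocitrate dehydrogenases.

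**Figure D2:**
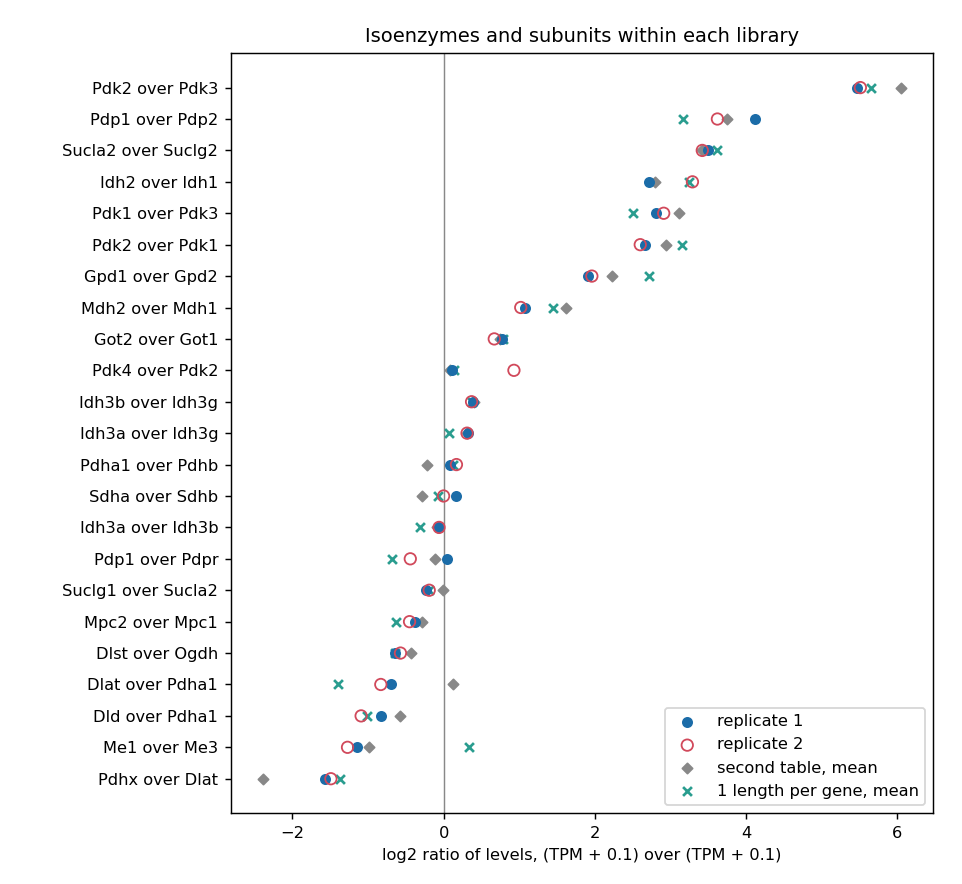
Log2 ratio of the levels of isoenzymes and of subunits of 1 complex within each library, as (TPM + 0.1) over (TPM + 0.1), with diamonds for the mean in the second table and crosses for the mean with 1 length per gene. The points of the libraries nearly coincide for the Idh3 subunits and for Sucla2 over Suclg2, and lie apart for Pdk4 over Pdk2, Idh2 over Idh1, Pdp1 over Pdp2 and Pdp1 over Pdpr.

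Malic enzymes convert malate to pyruvate, Me1 in the cytosol and Me3 in the mitochondrion, each with NADP. Me3 (chr7:89632392-89854359, plus strand) stood at 37.9 TPM in replicate 1 and 40 TPM in replicate 2, above Me1 (chr9:86581371-86695953, minus strand) at 17.0 TPM and 16.5 TPM. Me2, the NAD-linked mitochondrial form, was at 3.53 and 3.68 TPM and is named here after its values were seen. By these values Me3 made up 64.8% and 66.4% of the family.

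Almost none of the Me3 level was in the coding transcript. Me3-202, the only complete coding form, with 14 exons, held 1.93% of the gene in replicate 1 and 2.44% in replicate 2, at 0.73 and 0.97 TPM. Me3-201, with no annotated reading frame, held 56.4% in both, and Me3-203, a retained-intron transcript, held 38.3% and 39.9%. The second table gave the same picture, with 4.74% and 5.31% in the coding transcript. Me3-201 has 9 exons, 7 of them identical to exons of Me3-202, and begins with an exon of its own inside the gene, printed here because it is the start of the form with most of the signal (chr7:89829282-89829340, plus strand, mm10, 5′ to 3′, no capitals).
Me3 internal first exon: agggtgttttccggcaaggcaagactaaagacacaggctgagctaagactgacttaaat
With 1 length per gene, Me3 fell to 12.2 and 12.9 TPM while Me1 stayed at 16 and 15.8 TPM. The order of the malic enzymes was then the reverse, with a log2 ratio of Me1 over Me3 of 0.34 in place of -1.21 ± 0.09 (SD, n = 2). The order therefore depends on which transcripts the reads are given to.

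**Figure D3:**
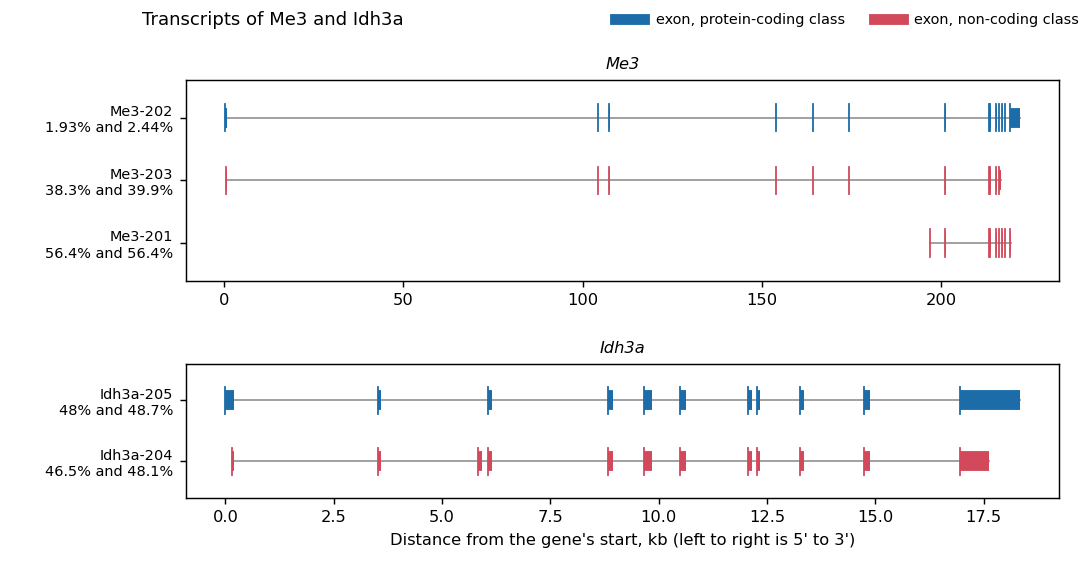
Exon maps of the leading transcripts of Me3 and Idh3a, drawn as distance in kilobases from the gene's start, with each transcript's percent of the gene in replicate 1 and replicate 2. Me3-201 lies in the last part of the gene and holds 56.4% in both libraries, and Idh3a-204 carries the extra exon that Idh3a-205 lacks.

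Over all 31 genes, transcripts of a class not annotated as protein-coding held a median of 3.70% of the gene's TPM in replicate 1 and 3.37% in replicate 2, against 6.92% and 5.19% over protein-coding genes at 1 TPM or more. Such transcripts reached 25% or more in both libraries for 6 of the 31 genes, namely Mpc2, Dlat, Pdk1, Idh3a, Mdh2 and Me3, where 18.6% of 11541 protein-coding genes did so. Both tables placed 5 of them there, all but Mdh2, against 13.6% of genes. The second table alone also placed Pdhb, Dld, Pdk2, Dlst, Fh1 and Me1 there. Its values were 25.7% and 29.8% for Pdhb, 28.1% and 29% for Dld, and 28% and 32.2% for Pdk2. They were 68.9% and 68.2% for Dlst, 40.1% and 64.4% for Fh1, and 26.6% and 26.4% for Me1. No share over all genes is given for the second table alone, so these do not set the genes apart. For Pdk1 the largest such form was Pdk1-206, at 33.1% and 24.6% of the gene. The leading transcript was the same in both libraries and both tables for 24 of the 31 genes, beside 68.8% of protein-coding genes. The exceptions were Mpc2, Dlat, Pdp1, Pcx, Idh3a, Sucla2 and Fh1.

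**Figure D4:**
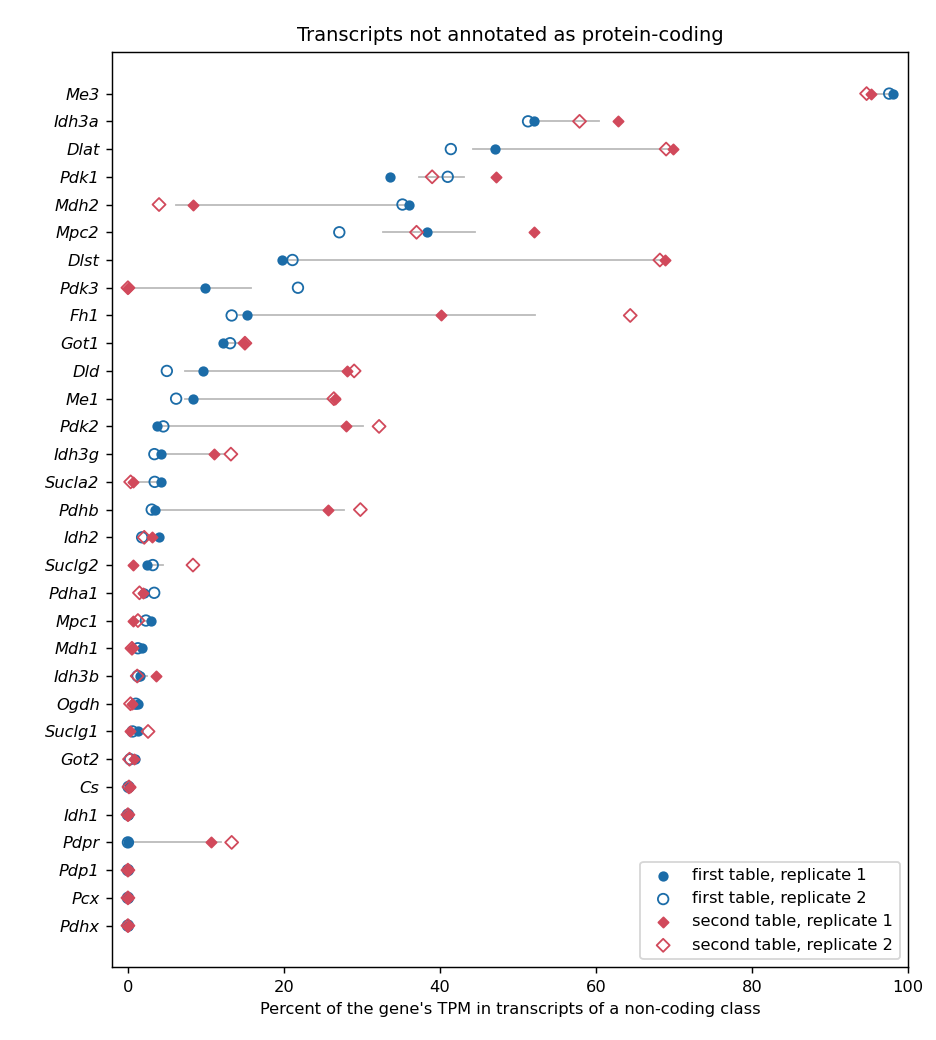
Percent of each gene's TPM in transcripts of a class not annotated as protein-coding, in both libraries and both deposited tables. Me3 lies above 90% in all 4 columns, Idh3a above 50%, and Mdh2 near 35% in the gene tables only.

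Of the 31 genes, 5 were over 0.5 higher on the log2 scale in the second table in at least 1 library (Mpc1, Mpc2, Dlat, Dlst and Fh1), where 4.25% of protein-coding genes were, and 1 was over 0.5 lower (Mdh1), where 9.96% were. Counts were whole numbers, to a tolerance of 0.005, for 26 of the 31 genes. The other 5, Mpc1, Pdhb, Suclg2, Got2 and Me1, had counts that were not whole, as arises when reads are divided among genes. An annotated gene overlapped 15 of the 31, and in 12 cases on the opposite strand. Such partners included Nop56 beside Idh3b, Lrfn4 beside Pcx at 2.18 and 2.20 TPM, and Wdpcp beside Mdh1 at 1.94 and 1.62 TPM. No share over all genes is given for whole counts or for overlaps, so these counts do not set the 31 genes apart.

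The libraries were then set against each other through the log2 ratio of replicate 2 over replicate 1, from counts scaled by TMM, a method that takes a trimmed mean of gene ratios as the baseline. Of the 31 genes, 27 were higher in replicate 2 and 4 were lower, where 51.8% of 14667 endogenous genes (mean count at least 20) and 60.6% of 4091 nuclear protein-coding genes (mean count at least 1000) were higher. The median ratio of the 31 was 0.18, or 1.13-fold, and that of the background sets was 0.008 and 0.032. The differences were small, and 28 of the 31 genes averaged at least 1000 counts, so counting error alone was narrow. The biological coefficient of variation over 16214 genes, a measure of the spread between these mice, was 0.103. Since the libraries are bulk tissue, fewer cells of a type and less RNA per cell cannot be told apart.

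For 24 genes the 95% interval for counting error lay wholly above 0, for 2 wholly below, and for 5 it spanned 0. Over the 14667 genes the intervals lay above 0 for 18.2% and below for 13.8%, and over the 4091 deeply counted genes for 34.6% and 17.8%. With scaling by library totals 23 genes lay above 0 and 2 below, but the deeply counted background became 25.5% and 27.9%. These intervals compare a pair of libraries and say nothing of a condition.

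**Figure D5:**
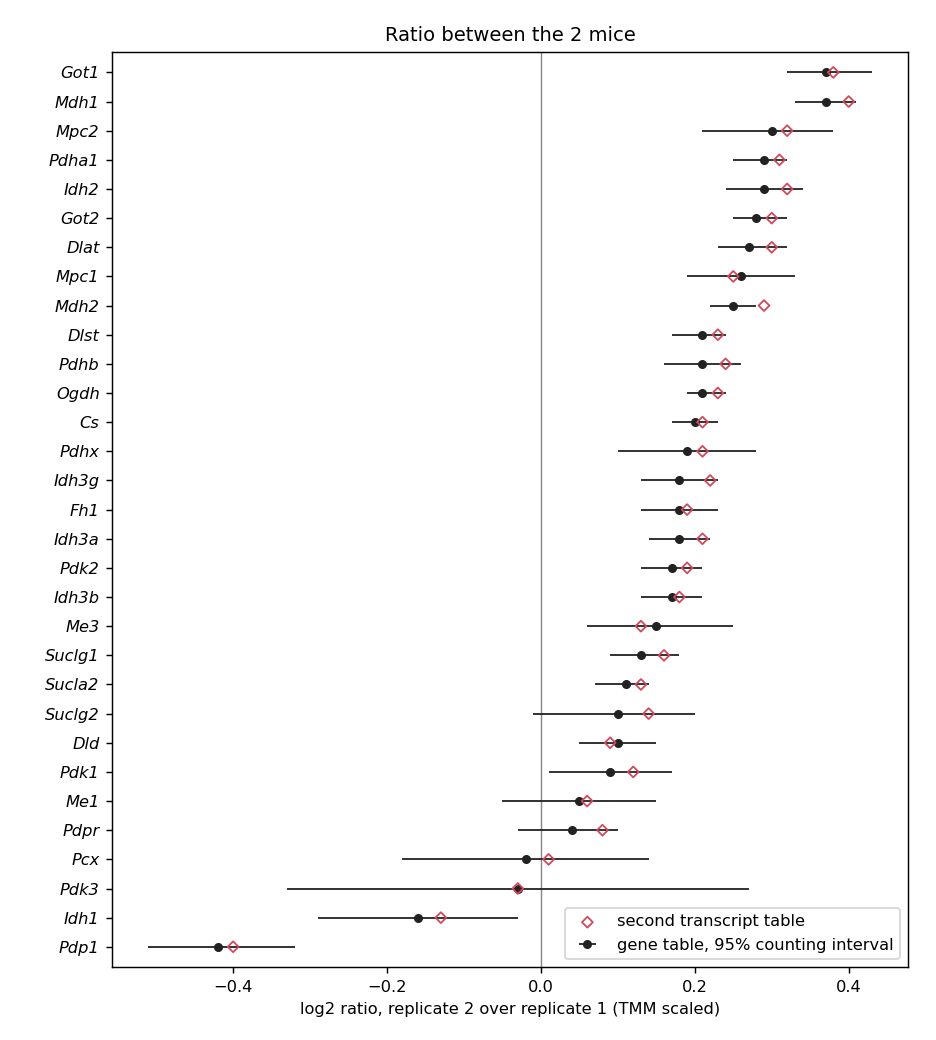
Log2 ratio of replicate 2 over replicate 1 for each gene, from TMM-scaled counts, with bars for the exact 95% interval of counting error. Most genes lie between 0.1 and 0.3, Got1 and Mdh1 are highest at 0.37, and Pdp1 is lowest at -0.42.

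The genes with the largest ratios were both cytosolic shuttle enzymes. Got1 rested on 4569 counts in replicate 1 and 5643 in replicate 2, a log2 ratio of 0.37 (interval 0.32 to 0.43), and Mdh1 on 8560 and 10527, a log2 ratio of 0.37 (interval 0.33 to 0.41). They were the only 2 over 1.25-fold higher, where 7.77% of the 14667 genes and 4.55% of the deeply counted genes were. Their mitochondrial partners had smaller ratios, 0.28 for Got2 and 0.25 for Mdh2.

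Ratios of the carrier and the complex were 0.26 for Mpc1, 0.30 for Mpc2, 0.29 for Pdha1, 0.21 for Pdhb and 0.27 for Dlat, all with intervals above 0. Pdhx was at 0.19 and Dld at 0.10. The enzymes of the cycle kept close together, from 0.17 for Idh3b to 0.25 for Mdh2, with Cs at 0.20, except for the ligase subunits, which were at 0.13 for Suclg1, 0.11 for Sucla2 and 0.10 for Suclg2. Among the kinases Pdk2 was at 0.17 and Pdk1 at 0.09. The interval of Suclg2 spanned 0, as did those of Pdk3, Pdpr, Pcx and Me1. The gap to the ligase subunits depended on the setting. It was not kept when ratios were corrected for length and GC content, a step added after seeing the data. Suclg1 then stood at 0.08, Sucla2 at 0.11 and Suclg2 at 0.10, with Idh3b at 0.10 and Idh3g at 0.11 among them. Idh3a, Dlst, Fh1 and Mdh2, at 0.16, Cs at 0.17 and Ogdh at 0.18 stayed above. Pdk2 was then at 0.09 and Pdk1 at 0.11.

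Pdp1 went the other way from the complex that its product activates. It had 2340 counts in replicate 1 and 1671 in replicate 2, a log2 ratio of -0.42 (interval -0.51 to -0.32), and was the only gene of the 31 over 1.25-fold lower, where 10.9% of the 14667 genes and 1.49% of the deeply counted genes were. Idh1 had 986 and 841 counts, a log2 ratio of -0.16 (interval -0.29 to -0.03). The second table gave -0.40 for Pdp1 and -0.13 for Idh1. Only 1 gene had an interval wholly below 0 there, so the call for Idh1 did not hold in that table. For 6 genes, Dld, Sucla2, Pdpr, Me1, Pdk3 and Pcx, the TPM and the scaled counts differed in direction, each by a small amount.

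Other lists moved between the mice as well, where 51.8% of the 14667 genes were higher in replicate 2. Slow fibre markers were higher in replicate 2 for 10 of 10 genes, with summed levels of 1197 TPM in replicate 1 and 1636 TPM in replicate 2, none at 0. Early response genes, which can rise with handling, were higher for 10 of 10, at 88.8 and 195 TPM, and the cause of that difference was not tested. Endothelial markers were higher for 8 of 8, at 177 and 195 TPM, and mural cell markers for 6 of 6, at 357 and 412 TPM. Erythroid markers, in which haemoglobin RNA dominates, were higher for 6 of the 6 with enough counts of 7, at 1139 and 2083 TPM. Fibroblast markers were lower for 6 of 6, at 3704 and 3321 TPM, and fat cell markers were divided, 3 higher and 4 lower, at 208 and 234 TPM with Ucp1 at 0. The part of these differences in the ratios of the 31 genes was not tested.

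A list of 40 other genes of the pathway was set beside the 31. Of the 38 that averaged at least 20 counts, 24 were higher in replicate 2 and 14 lower, with a median log2 ratio of 0.07. The interval lay above 0 for 12 of the 40 and below 0 for 3, against the 18.2% and 13.8% of the 14667 genes. Over the 4091 deeply counted genes the shares were 34.6% and 17.8%. All of the 12 but Sdhaf2 and Slc25a22 averaged at least 1000 counts. The 3 lower ones, named after their values were seen, were Gpd1 at -0.11, Gpd2 at -0.17 and Pck1 at -0.78. Gpd1 and Gpd2 encode the cytosolic and mitochondrial enzymes of the glycerol phosphate shuttle, so these were lower in replicate 2 while the malate-aspartate enzymes Mdh1, Got1 and Got2 were higher. Pdk4 had the highest ratio of the list, 0.82 (interval 0.79 to 0.85), with 13885 and 23411 counts.

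By level, the highest of the other genes was Ldha, muscle lactate dehydrogenase, at 996 TPM in replicate 1 and 952 TPM in replicate 2, above every one of the 31. Also among the highest were Sdhc at 301 and 340.2 TPM, Pdk4, Sdha at 221 and 242 TPM, Sdhb at 198 and 242 TPM, Gpd1 at 199 and 175 TPM and Sdhd at 162 and 173 TPM. The Sdh genes encode the 4 subunits of succinate dehydrogenase, the step shared by the cycle and the respiratory chain. Sdhc is uncertain, since the second table put it at 150 and 170.1 TPM and a single length for the gene at 68.9 and 76.4 TPM. Gpd2 stood at 52.9 and 44.8 TPM, so that Gpd1 exceeded it with a log2 ratio of 1.94 ± 0.04 (SD, n = 2), or 3.83-fold. The ratio was 2.22 in the second table and 2.72, or 6.58-fold, with 1 length per gene. Besides Pdha2 and Ogdhl, the genes under 1 TPM in both libraries were Dhtkd1, Csl, Slc25a13 and Slc25a18, 6 in all, although the second table gave Dhtkd1 1.14 TPM in replicate 1. Slc25a13 encodes a form of the aspartate-glutamate carrier that completes the malate-aspartate shuttle, and was at 0.73 and 0.63 TPM, where its relative Slc25a12, named after its values were seen, was at 145 and 167 TPM, or 54.4 and 59.6 TPM with 1 length per gene. As with Me3, most of the Slc25a12 level, 91.2% and 91.7%, was in transcripts of a non-coding class.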

How the data were processed

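The authors deposited gene and transcript tables in the column layout of RSEM, with expected counts, TPM and each transcript's percent of its gene. Per the file headers and the notes beside them, these were quantified from alignments to the GENCODE M21 transcriptome of mm10. They also deposited transcript tables in the layout of kallisto, with estimated counts and TPM from FASTQ files. The bounds of the TPM interval, a signal column per the file headers, were not used. The sources used here name no aligner and no program version. The libraries held 38874862 and 38160786 expected counts. Reads were placed on mm10 although the mice are hybrids, and loss of reads from the other strain's alleles was not tested.

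Expected counts were rounded and scaled with TMM in edgeR 4.0.16 (R 4.3.3) over endogenous genes averaging at least 10 counts, and ratios used a prior count of 0.5. Exact (Clopper-Pearson) 95% binomial intervals come from 1 count per library and cover counting error only. Without molecular identifiers several reads can come from 1 molecule, so the intervals can be too narrow even for that error. With 1 group, edgeR gave scaling and dispersion and no test. Ratios of levels used a pseudocount of 0.1 TPM. The second table was rescaled over protein-coding genes listed in both, and a difference over 0.5 (log2) marks a gene as uncertain. Sequences were read from the GENCODE M21 transcripts. The scaling was tested on simulated data over 16214 genes, where a median ratio was recovered with an error of at most 0.035.

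The members and lists were chosen with earlier results of these data known. All 31 members are named, and of 40 other pathway genes the 8 with the highest mean TPM, those under 1 TPM in both libraries and those in pairs, with a few items not reported here. Alternatives covered the second table, posterior means, DESeq2 1.42.0 size factors, library and spike-in totals, filters, pseudocounts and leaving out each library. Levels with 1 length per gene, levels from complete coding transcripts only and removal of a trend on length and GC content were added after seeing the data. Analyses used Python 3.11.15, numpy 2.4.6, pandas 2.3.3, scipy 1.17.1 and matplotlib 3.10.9.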

Additional observations from a re-analysis of the deposited data

How the results depend on the processing

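No paired analysis was possible because there is 1 group only. Under the other settings of scaling, table, estimator, filter and summary the median ratio of the 31 genes stayed between 0.14 and 0.21, and 26 to 28 genes were higher in replicate 2. Intervals wholly above 0 numbered 23 to 26, and the number wholly below 0 went from 2 to 1 in the second table, where Idh1 was no longer called. The median level, 115 TPM as the mean of the libraries, was 129.6 TPM in the second table and 85.6 TPM with complete coding transcripts only, the latter added after seeing the data, and lay between 109.8 and 119.9 TPM in single libraries. The levels of single genes could change more or less than this median. In the second table the mean level of Ogdh went from 212 to 286 TPM, and that of Mdh2 from 436 to 428 TPM. With complete coding transcripts only, Idh3a went from 177 to 85.4 TPM and Cs stayed at 244 TPM. The median percent in non-coding classes was 3.54 in the gene tables and 3.83 in the second table. Of 24 pairs, 15 had the first gene higher in both libraries, with 13 to 16 under the alternatives. Pairs that changed sign in the second table were Pdha1 over Pdhb at -0.22, Dlat over Pdha1 at 0.12 and Sdha over Sdhb at -0.28. With 1 length per gene, Me1 over Me3 went to 0.34 and Sdha over Sdhb to -0.07. Pdp1 over Pdpr lay between -0.44 and 0.04 when either library was left out. The tables divide reads among transcripts differently, and the cause of these changes was not tested. With 2 libraries the spread is known poorly. Counting intervals were widest for Pdk3 and Pcx.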
